A study of Mus musculus with 12 samples.

Results

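The interferon response genes are a family of 42 named genes that cells switch on when interferon reaches them, and 40 of the 42 had a measurement among the 18193 genes on the arrays. The members were chosen by symbol, and each was read by its probe set with the highest mean log2(intensity + 1) over all 12 arrays. Isg15 was represented only by a probe set that another gene shares, and it has no value here, while Ifi44 was not analysed here. Transcripts of 4 mouse leukaemia cell lines were measured, each on 3 one-colour arrays lettered A, B and C. B117H is labelled resistant to cytarabine (Ara-C, a cytidine analogue that blocks DNA synthesis) and was derived from the sensitive line B117P. B140H is labelled resistant and was derived from the sensitive line B140P. All 4 lines derive from leukaemias of BXH-2 mice, which as an inbred strain develop myeloid leukaemia from a retrovirus, and each line is a single line, so a difference between a resistant line and its parent is a difference between those cultures. One protocol text stands with all 12 arrays, exposure to rising Ara-C and passage without the drug, so it does not set the lines apart. None of the labels says that the arrays of a line came from separate cultures, so each p-value reflects nothing beyond the variation among these arrays, which may be technical. A difference in bulk RNA cannot tell fewer cells of a type from less RNA per cell.

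Type I interferons bind the receptor made of Ifnar1 and Ifnar2, and type II interferon binds that of Ifngr1 and Ifngr2. At the type I receptor the kinases Jak1 and Tyk2, and at the type II receptor Jak1 and Jak2, then activate transcription factors. Stat2, downstream of the type I receptor, works with Irf9 in a complex that binds interferon-stimulated response elements in the promoters of target genes. Gamma-activated sequences are the response elements of type II interferon. The products degrade, sense or edit foreign RNA, block viral replication, attack the vacuoles of intracellular microbes, or feed back on the pathway, and macrophages and other myeloid cells are among the cells that respond strongly.

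The median intensity of an array was between 118 and 131 units on the linear RMA scale. Correlations across probe sets ran from 0.988 to 0.997 within a line and from 0.954 to 0.967 across lineages. Array B of B140H stood apart in its distribution, with a lower quartile of 58.6 intensity units, and without it the counts of members called were 15 in B117H, 3 in B140H and 11 for the difference between these changes. The labels call the cells murine leukaemia cells and describe them as AML. In the B117 lines Mpo, the granule peroxidase, averaged 16824 intensity units in B117H and 25315 in B117P. In the B140 lines Mpo averaged 156 in B140H and 748 in B140P, while Cd79b, a subunit of the B cell receptor, averaged 2788 in B140H and 1855 in B140P, against 64.2 in B117H and 106 in B117P. Mpo and Cd79b are single markers and do not stand for other markers of these cells. The sums of 9 B lymphoid markers ran from 4624 to 6179.8 in B117H, against 7419 to 8756 in B140H. For 12 neutrophil granule markers the median log2 difference between B140H and B117H was 0.04.

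In B117H, 13 of the 40 interferon response genes fell and 2 rose relative to B117P. Of all genes, 9.41% were called in this comparison, 4.68% downward and 4.73% upward. A call means a limma adjusted p, over the 45037 probe sets tested, that lies under 0.05. The median member changed by -0.18 on the log2 scale, against -0.01 for all genes. An unadjusted p under 0.05 was found for 20 of the 40 members and for 3633 of all 18193 genes. In B140H, 3 members rose and 0 fell relative to B140P, against 6.56% of all genes called, 2.81% upward and 3.75% downward. There 9 of the 40 members and 3383 of all 18193 genes had an unadjusted p under 0.05. The median member changed by 0.09 in B140H, against 0.05 for all genes. In this fit no member was called in both resistant lines, and 18 were called in 1 or the other.

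**Figure D1:**
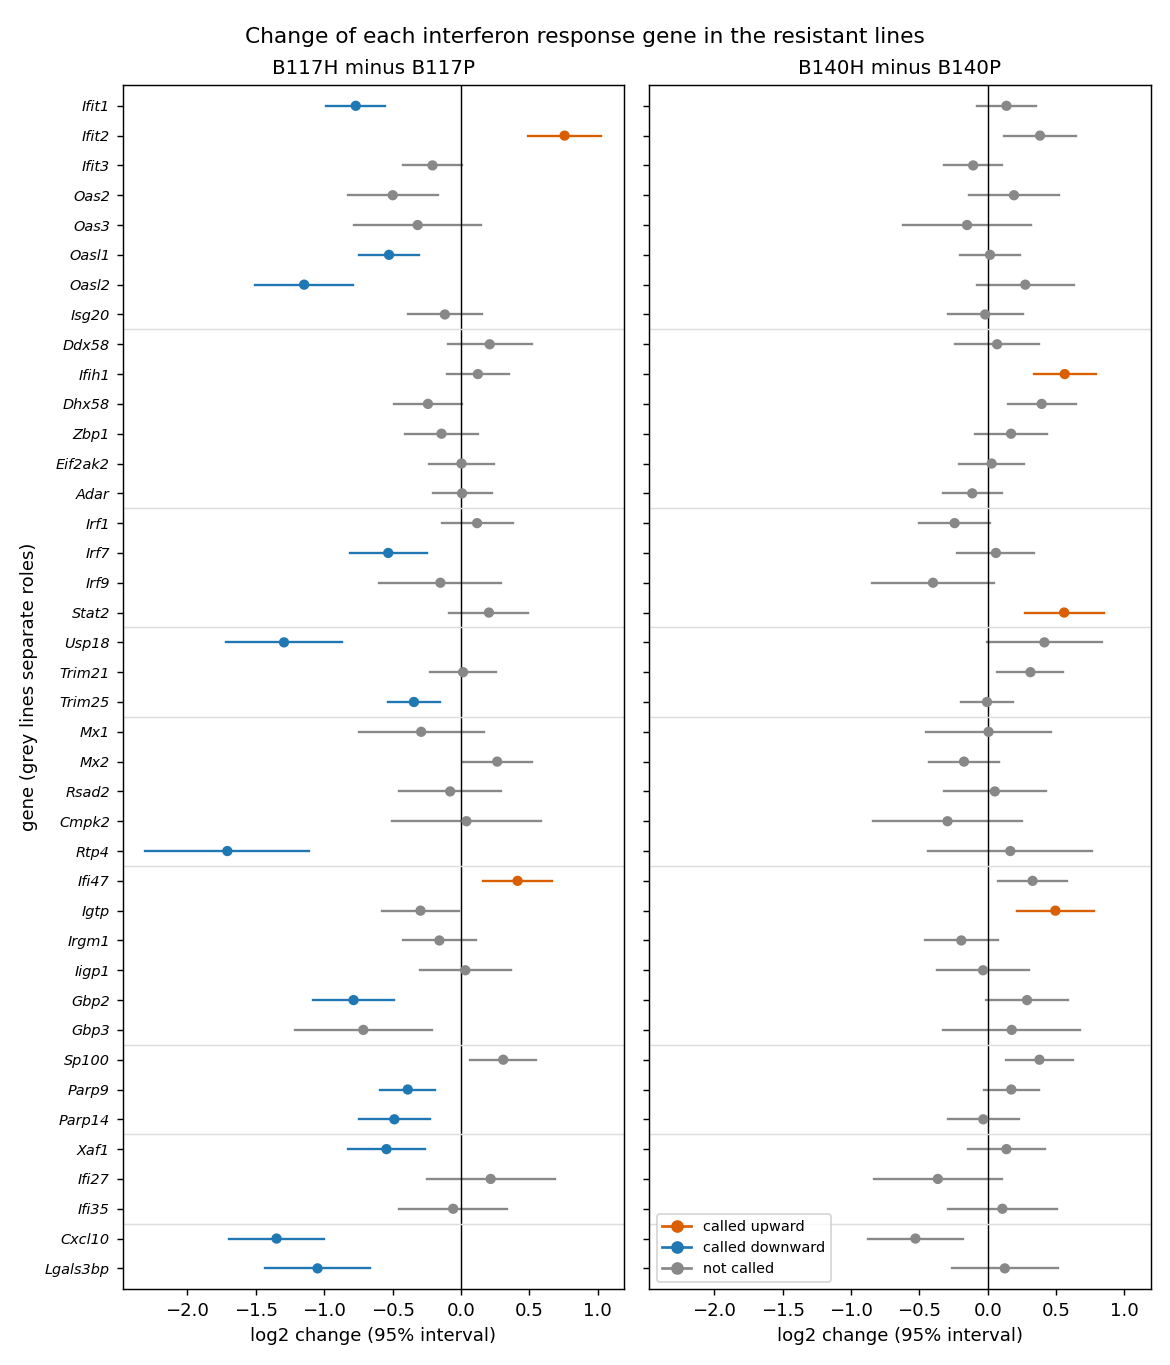
Log2 change of each of the 40 measured interferon response genes with its 95% interval, for B117H minus B117P on the left and B140H minus B140P on the right, with genes grouped by role down the page. In B117H, 13 genes were called downward, with Rtp4 at -1.71 the furthest, while in B140H the 3 called genes, Ifih1, Stat2 and Igtp, lie upward.

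Promoter sequences come from the RefSeq promoter table (build GRCm38.p6), as windows of 300 bases from 250 bases before the annotated transcript start to 50 after it. The table held a promoter for 31 of the 42 members. Each window was searched on both strands for the core of the interferon-stimulated response element, spelled GAAA, any 2 bases, GAAA, with overlapping matches counted. The core was present in the promoters of 15 of the 31 members (48.4%), and in 3.99% of all 27025 genes with a promoter in the table. Of the members in the table that were called in B117H or B140H, the 4 with a match and the 2 without that had the largest changes in either direction are shown. Cxcl10, Gbp2 and Ifit1 fell in B117H and Ifih1 rose in B140H, and each holds at least 1 match. Oasl2 and Lgals3bp also fell in B117H, and their windows hold no match. Capitals mark the core, which reads TTTC, any 2 bases, TTTC where it lies on the other strand, and all sequences run 5′ to 3′ on the strand of the gene.
Cxcl10 (chr5:92348840-92349139, minus strand): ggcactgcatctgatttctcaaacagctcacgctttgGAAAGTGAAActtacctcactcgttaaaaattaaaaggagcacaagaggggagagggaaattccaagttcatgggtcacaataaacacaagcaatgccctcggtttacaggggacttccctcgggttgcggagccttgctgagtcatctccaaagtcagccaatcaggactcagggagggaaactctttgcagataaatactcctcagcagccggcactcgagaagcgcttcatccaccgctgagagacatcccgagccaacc
Gbp2 (chr3:142620413-142620712, plus strand): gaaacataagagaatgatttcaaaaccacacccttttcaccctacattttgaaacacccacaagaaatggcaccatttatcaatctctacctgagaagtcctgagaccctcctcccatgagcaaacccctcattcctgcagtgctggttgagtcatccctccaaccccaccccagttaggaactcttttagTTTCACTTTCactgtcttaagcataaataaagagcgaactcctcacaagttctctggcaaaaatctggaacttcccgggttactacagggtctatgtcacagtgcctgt
Ifit1 (chr19:34640639-34640938, plus strand): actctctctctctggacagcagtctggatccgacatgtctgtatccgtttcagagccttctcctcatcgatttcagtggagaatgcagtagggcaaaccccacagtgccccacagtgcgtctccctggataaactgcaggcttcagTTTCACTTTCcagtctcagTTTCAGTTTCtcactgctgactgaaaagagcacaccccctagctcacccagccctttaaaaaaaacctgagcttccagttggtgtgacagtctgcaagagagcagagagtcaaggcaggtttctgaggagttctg
Ifih1 (chr2:62646206-62646505, minus strand): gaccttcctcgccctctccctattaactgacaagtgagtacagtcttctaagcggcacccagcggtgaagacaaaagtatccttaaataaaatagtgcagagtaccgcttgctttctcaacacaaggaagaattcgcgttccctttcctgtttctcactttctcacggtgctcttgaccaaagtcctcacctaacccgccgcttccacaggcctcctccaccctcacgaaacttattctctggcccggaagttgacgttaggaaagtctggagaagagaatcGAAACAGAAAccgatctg
Oasl2 (chr5:114896684-114896983, plus strand): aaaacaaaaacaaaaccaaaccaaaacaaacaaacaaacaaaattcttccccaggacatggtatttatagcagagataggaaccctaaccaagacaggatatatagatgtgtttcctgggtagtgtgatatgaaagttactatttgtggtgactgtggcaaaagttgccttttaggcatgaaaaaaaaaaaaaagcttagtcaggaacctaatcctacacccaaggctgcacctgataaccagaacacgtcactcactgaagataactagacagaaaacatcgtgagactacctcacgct
Lgals3bp (chr11:118401910-118402209, minus strand): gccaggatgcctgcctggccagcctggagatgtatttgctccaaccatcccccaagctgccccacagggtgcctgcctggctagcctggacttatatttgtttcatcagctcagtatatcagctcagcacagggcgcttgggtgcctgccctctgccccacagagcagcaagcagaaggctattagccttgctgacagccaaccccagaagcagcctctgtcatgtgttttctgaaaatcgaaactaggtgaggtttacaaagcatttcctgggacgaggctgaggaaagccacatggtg
Ifit1 has 2 matches and the other 3 marked promoters have 1 each. Of the measured members with a promoter, 14 hold the core and 15 do not. In B117H, 3 of the 14 fell and 0 rose, while 6 of the 15 without the core fell and 2 rose. In B140H the 3 genes that rose all hold it, and 0 of the 15 without it were called. The core of the gamma-activated sequence, spelled TTCNNNGAA and searched in the same way, was present in 7 of the 31 members (22.6%) and in 9.55% of all genes with a promoter. A match is a run of letters and was not tested as a binding site.

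**Figure D2:**
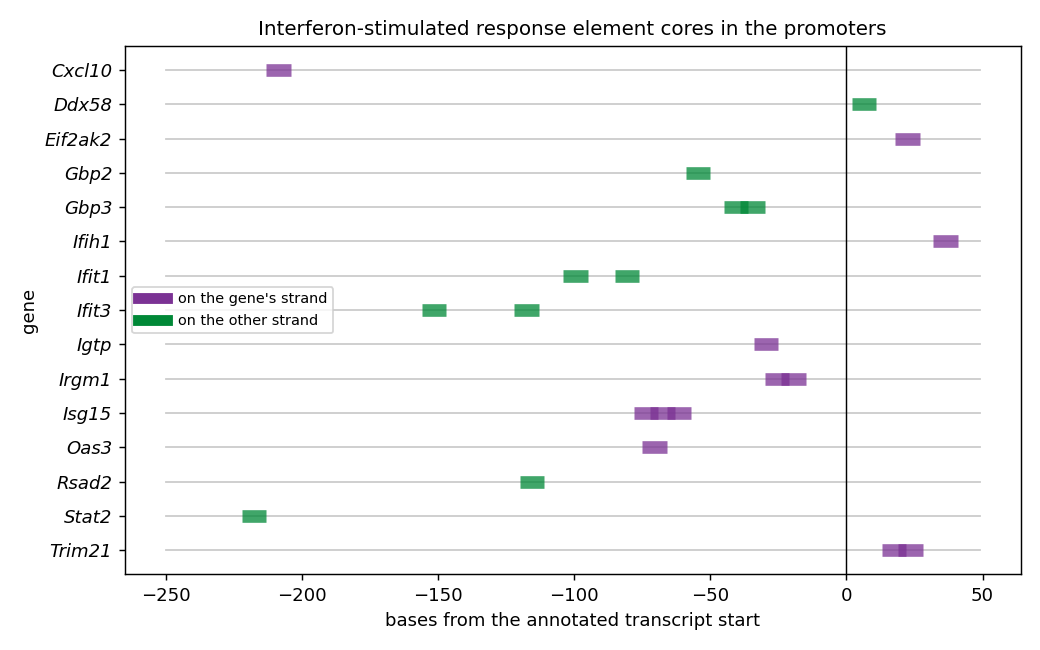
Position of each match to the response element core, in bases from the annotated transcript start, for the 15 members that hold 1, with colour for the strand. The matches of Cxcl10 and Stat2 lie furthest before the start, and those of Ifih1, Trim21, Eif2ak2 and Ddx58 lie after it.

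Among the genes whose products bind and break down foreign RNA, Ifit1, Oasl1 and Oasl2 fell in B117H and Ifit2 rose. Ifit1, which binds RNA with caps that mark it as foreign, measured 62.9, 53.6 and 57.6 intensity units in B117H, against 89.1, 109 and 101 in B117P. All 3 B117H arrays lay below all 3 B117P arrays, a log2 change of -0.77 (adjusted p = 0.000352). In the other lineage Ifit1 measured 65.5, 64.1 and 59.6 in B140H, against 59.7, 54.2 and 57.9 in B140P, groups that overlapped, with a change of 0.14 (adjusted p = 0.618). Its relative Ifit2, which lies beside Ifit3 and near Ifit1 on chromosome 19, measured 492, 618 and 547 in B117H, against 317, 363 and 298 in B117P. It rose by 0.76 (adjusted p = 0.00175), with all 3 B117H arrays above all 3 B117P arrays. Ifit2 also lay higher on every B140H array, at 685, 614 and 659 in B140H, against 431, 521 and 557 in B140P, but its change of 0.38 (adjusted p = 0.12) did not pass the test. The third member of this cluster, Ifit3, changed by -0.21 (adjusted p = 0.334) in B117H and by -0.11 (adjusted p = 0.707) in B140H and was not called.

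Oasl2, an oligoadenylate synthetase relative, measured 63.1, 59.1 and 72.7 intensity units in B117H, against 118, 145 and 175 in B117P. It fell in B117H, with a log2 change of -1.15 (adjusted p = 0.000717), and the lines did not overlap. In the B140 lines it measured 50.2, 44.5 and 34.2 in B140H, against 35.8, 30.6 and 38.7 in B140P, which overlapped, with a change of 0.27 (adjusted p = 0.511). Its neighbour on chromosome 5, Oasl1, which in mice restrains the translation of Irf7, measured 316, 339.6 and 293 in B117H, against 471, 426 and 469.9 in B117P and fell by 0.53 (adjusted p = 0.00594). Of the synthetases that make the activator of RNase L, Oas2 changed by -0.50 (adjusted p = 0.0764) in B117H and Oas3 by -0.32 (adjusted p = 0.621), and neither was called. Oas2 passed the test with other settings, such as quantile normalization repeated (adjusted p = 0.0414), and without array B (adjusted p = 0.0437) or array C of B140H (adjusted p = 0.0281). Isg20, an RNA exonuclease, changed by -0.12 (adjusted p = 0.85) in B117H and by -0.02 (adjusted p = 0.969) in B140H.

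None of the 6 genes that sense or edit RNA and other nucleic acids was called in B117H, where 0 had an unadjusted p under 0.05. Ifih1 (MDA5), a sensor of long duplex RNA, rose in B140H. It measured 118, 105 and 131 intensity units in B140H, against 75.1, 83.5 and 79.4 in B140P, all 3 B140H arrays above all 3 B140P arrays, a log2 change of 0.56 (adjusted p = 0.00658). In the B117 lines it measured 100.02, 87.3 and 103 in B117H, against 93.3, 88.3 and 83.7 in B117P, which overlapped, with a change of 0.12 (adjusted p = 0.747). Dhx58 (LGP2), which assists this sensor, measured 282, 255 and 241 in B140H, against 211, 185 and 194 in B140P and changed by 0.39 (adjusted p = 0.0785). In the fit with the array letter as a replicate block, which pairs the B140 arrays, Dhx58 was called (adjusted p = 0.0267). Ddx58 (RIG-I), the sensor of RNA with free triphosphate ends, changed by 0.21 (adjusted p = 0.614) in B117H and 0.07 (adjusted p = 0.886) in B140H. Zbp1, a sensor of left-handed nucleic acid, and Eif2ak2 (PKR), the kinase that halts translation, were called in none of the comparisons. Adar, which edits adenosines in duplex RNA, was not called either by the probe set used. Another Adar probe set was called lower in B140P than in B117P, at -0.49 (adjusted p = 0.00868).

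Of the transcription factors of the response, Irf7 fell in B117H and Stat2 rose in B140H. Irf7, which drives the interferon genes themselves, measured 148, 146 and 165 intensity units in B117H, against 239, 192 and 235 in B117P. All B117H arrays lay below all B117P arrays, with a change of -0.53 (adjusted p = 0.0249), and this call was lost without array A or B of B117H or array A or C of B117P (adjusted p between 0.0857 and 0.107). Stat2 measured 243, 202 and 205 in B140H, against 159.9, 128 and 153 in B140P, with all B140H arrays above all B140P arrays. Its change of 0.56 (adjusted p = 0.0305) was not called without array A of B140H or array B or C of B140P (adjusted p between 0.0736 and 0.149). When its probe sets were averaged, Stat2 was not called either (adjusted p = 0.122). Irf9, the partner of Stat2, changed by -0.15 (adjusted p = 0.91) in B117H and -0.40 (adjusted p = 0.413) in B140H, and Irf1, an early factor downstream of type II interferon, by 0.12 (adjusted p = 0.831) and -0.24 (adjusted p = 0.389).

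In the ISG15 system, Usp18 fell most. Usp18 removes ISG15 from proteins and blocks signalling at Ifnar2. It measured 175, 137 and 265 intensity units in B117H, against 501, 415 and 455 in B117P, so that the highest B117H array lay well under the lowest B117P array. Its log2 change was -1.29 (adjusted p = 0.00103). Usp18 lay lower in the B140 lines, at 83.2, 71.8 and 58.6 in B140H, against 52.1, 53.3 and 52.5 in B140P. There every B140H array lay above every B140P array, but the change of 0.41 (adjusted p = 0.354) did not pass the test. Trim25, the ubiquitin ligase that activates RIG-I, measured 2063, 2201 and 2117 in B117H, against 2577, 2925 and 2606 in B117P and fell by 0.34 (adjusted p = 0.0317), a call lost without any of arrays A, B or C of B117H, array B or C of B117P or array B of B140P (adjusted p between 0.0533 and 0.13). The other Trim25 probe sets changed by -0.25 (adjusted p = 0.173) and -0.24 (adjusted p = 0.617) in B117H and were not called. Trim21, a ligase that recognises antibody-coated viruses, changed by 0.02 (adjusted p = 0.991) in B117H and 0.31 (adjusted p = 0.177) in B140H.

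Rtp4, a receptor chaperone with antiviral activity, had the largest change of all members in B117H. It measured 498, 580.4 and 693 intensity units in B117H, against 1754, 1843 and 2167 in B117P, a log2 change of -1.71 (adjusted p = 0.00179) with a standard error of 0.28. In the B140 lines it measured 479.9, 167 and 266 in B140H, against 263, 226 and 255 in B140P, with B140H arrays both above and below the B140P ones and a change of 0.17 (adjusted p = 0.855). The other Rtp4 probe set changed by -0.31 (adjusted p = 0.344) in B117H and was not called. The other antiviral effectors were called in neither resistant line. Mx1 and Mx2, dynamin-like GTPases that lie close together on chromosome 16, changed by -0.29 (adjusted p = 0.665) and 0.27 (adjusted p = 0.278) in B117H. Rsad2 (viperin), which makes a chain-terminating nucleotide, and its chromosome 12 neighbour Cmpk2, a mitochondrial nucleotide kinase, changed by -0.08 (adjusted p = 0.961) and 0.04 (adjusted p = 0.99).

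The immunity GTPases, which act on the vacuoles of intracellular microbes, moved in both directions. Gbp2 measured 54.2, 64.2 and 73.6 intensity units in B117H, against 94.96, 123 and 115 in B117P and fell in B117H, with a log2 change of -0.78 (adjusted p = 0.00314), and the arrays did not overlap. Ifi47 measured 1476, 1672 and 1689 in B117H, against 1034, 1407 and 1209 in B117P, all B117H arrays above all B117P arrays. Its rise of 0.41 (adjusted p = 0.0495) lay at the threshold, and the call was lost without any of arrays A, B or C of B117H, array A or C of B117P, any of arrays A, B or C of B140H or any of arrays A, B or C of B140P (adjusted p between 0.0519 and 0.177). Igtp measured 512, 415 and 568 in B140H, against 308, 340.5 and 411 in B140P and rose in B140H by 0.49 (adjusted p = 0.0474). That call, too, was lost without any of arrays A, B or C of B117H, any of arrays A, B or C of B117P, array A or C of B140H or array A or B of B140P (adjusted p between 0.0525 and 0.206). Gbp3, close to Gbp2 on chromosome 3, measured 1693, 2636 and 2214 in B117H, against 2518, 4125 and 4195 in B117P, which overlapped, and its change of -0.71 (adjusted p = 0.0972) did not pass, while without array A of B117P it did (adjusted p = 0.022). Irgm1 and Iigp1 were called in none of the comparisons in this fit, and Iigp1 was called higher in B140P than in B117P on the parental arrays alone (adjusted p = 0.0105).

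Parp9 and Parp14, ADP-ribosyltransferases that lie close together on chromosome 16, both fell in B117H. Parp9 measured 717, 729 and 812 intensity units in B117H, against 933, 979 and 1044 in B117P, without overlap, and changed by -0.39 (adjusted p = 0.0216), a call lost without array A or B of B117H or array B or C of B117P (adjusted p between 0.0609 and 0.1). Parp14 measured 186, 229 and 247 in B117H, against 281, 322 and 320.2 in B117P and changed by -0.49 (adjusted p = 0.025), a call lost without array A or B of B117H or array B or C of B117P (adjusted p between 0.0565 and 0.111). The other Parp14 probe set changed by -0.06 (adjusted p = 0.954) and was not called. Sp100, a protein of nuclear bodies, lay higher on every resistant array than on every array of its parent, with changes of 0.31 (adjusted p = 0.151) in B117H and 0.38 (adjusted p = 0.086) in B140H, and neither passed. In the fit with the replicate block, Sp100 was called in B140H (adjusted p = 0.0414). The other Sp100 probe set had the opposite sign in both, at -0.21 (adjusted p = 0.448) in B117H and -0.06 (adjusted p = 0.872) in B140H.

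Xaf1, which promotes cell death, measured 389.9, 457 and 553 intensity units in B117H, against 651, 654 and 719.8 in B117P and fell in B117H, with a log2 change of -0.54 (adjusted p = 0.0208), and the arrays did not overlap. This call was lost without array A or B of B117H or array B or C of B117P (adjusted p between 0.0524 and 0.0941). Ifi27, a mitochondrial protein, changed by 0.22 (adjusted p = 0.824) in B117H and -0.37 (adjusted p = 0.503) in B140H, and Ifi35, a cytoplasmic regulator of the response, by -0.06 (adjusted p = 0.979) and 0.11 (adjusted p = 0.858). Both secreted members fell in B117H. Cxcl10, the chemokine that attracts activated T cells, measured 134, 106 and 142 in B117H, against 239, 372 and 379.9 in B117P and changed by -1.35 (adjusted p = 0.000187), the smallest adjusted p among the members in this comparison. Its lowest B117P array still lay above every B117H array. In the B140 lines Cxcl10 measured 138, 126 and 130.2 in B140H, against 200.3, 187 and 184 in B140P, again lower on every resistant array, but the change of -0.53 (adjusted p = 0.099) was not called. Without array A of B117P, which enters only through the shared estimate of spread, it was (adjusted p = 0.0153). Lgals3bp, a secreted glycoprotein that binds galectins, measured 424, 465 and 419 in B117H, against 1219, 646 and 931 in B117P and fell by 1.05 (adjusted p = 0.00255), while the B140 lines measured 99.5, 104 and 91.3 in B140H, against 89.2, 101 and 81.1 in B140P, with a change of 0.12 (adjusted p = 0.825).

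**Figure D3:**
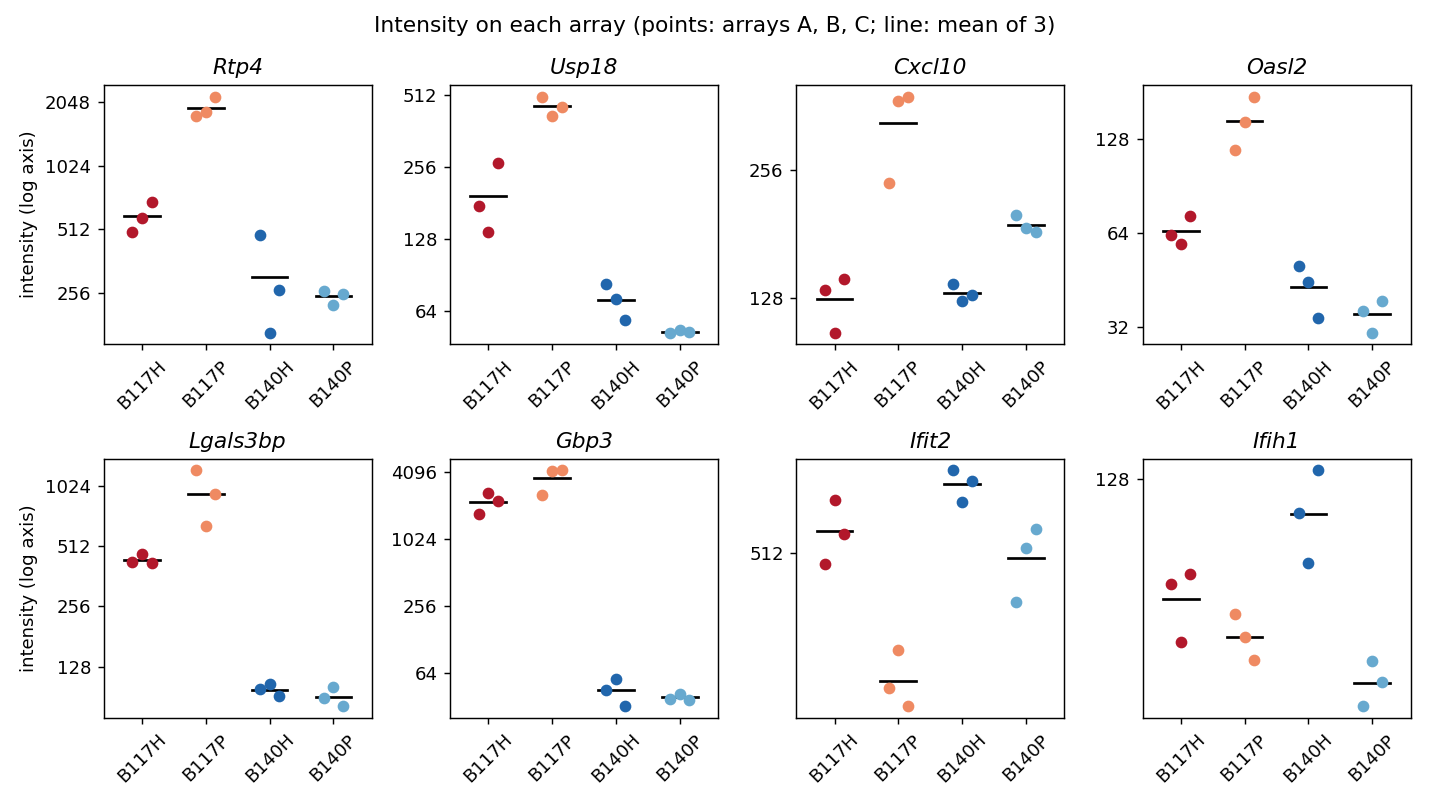
Intensity of 8 interferon response genes on each array, on log axes that differ between panels, with 1 point per array and a bar at the mean of 3 arrays. Rtp4, Usp18, Cxcl10, Oasl2 and Lgals3bp lie lower on all B117H arrays than on all B117P arrays, Ifit2 lies higher, and Ifih1 lies higher on all B140H arrays than on all B140P arrays.

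The calls in B117H were uneven in their stability. Of the 15, 9 were called under every alternative setting at the 0.05 threshold and without each array in turn, namely Ifit1, Ifit2, Oasl1, Oasl2, Usp18, Rtp4, Gbp2, Cxcl10 and Lgals3bp. The count of members called was 9 without array C of B117P, 9 without array A of B117H and 9 without array B of B117H. In B140H, Ifih1 alone was called under every such setting, and the count was 1 without array B of B140P and 1 without array A of B140H, against 5 with the replicate block. Fitted on the B117 arrays alone, Ifi47 (adjusted p = 0.119), Trim25 (0.0735), Parp14 (0.0622), Parp9 (0.0517) and Xaf1 (0.0513) were not called in B117H, and fitted on the B140 arrays alone, Igtp (0.189) and Stat2 (0.0684) were not called in B140H. The same settings added Oas2 as lower in B117H (adjusted p = 0.042) and Cxcl10 as lower in B140H (adjusted p = 0.0311), and with each pair fitted alone Cxcl10 was thus called downward in both resistant lines. No called member changed sign under any of these settings.

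The change in the resistant line differed between the lineages for 12 of the 40 members, each with the more positive change in B140H. This is the change in B140H minus the change in B117H, tested as an interaction, and 10.4% of all genes were called for it, 4.91% upward and 5.51% downward. The median member had a difference of 0.30, against 0.06 for all genes. The comparison uses the same arrays as the changes above and is no separate evidence for them. Rtp4 had the largest difference, 1.87 (adjusted p = 0.00989), followed by Usp18 at 1.71 (adjusted p = 0.00195) and Oasl2 at 1.42 (adjusted p = 0.00214). Lgals3bp differed by 1.17 (adjusted p = 0.0118), Gbp2 by 1.07 (adjusted p = 0.00418) and Ifit1 by 0.91 (adjusted p = 0.0016). In the fit with the replicate block 5 more were called, namely Gbp3, Irf7, Oas2 and Parp14 with the more positive change in B140H and Mx2 with the more negative one, at -0.44 (adjusted p = 0.0356). That fit includes array B of B117P, which does not pair by letter. Rtp4, Usp18, Oasl2, Lgals3bp, Gbp2 and Ifit1 were called under every alternative at the 0.05 threshold. The other 6 were Cxcl10 at 0.82, Igtp at 0.79, Xaf1 at 0.68, Dhx58 at 0.64, Parp9 at 0.56 and Oasl1 at 0.54, with adjusted p between 0.0176 and 0.0475. The count was 6 without array C of B117P, 7 without array B of B140P and 7 without array C of B140P. Among the 6, Igtp lost its call in the absence of 1 array, C of B117P. Cxcl10 was not called without any of arrays A, B or C of B117H, array B or C of B117P, any of arrays A, B or C of B140H or any of arrays A, B or C of B140P (adjusted p between 0.0517 and 0.122), and Xaf1 was not called without array A or B of B117H, any of arrays A, B or C of B117P, array A or B of B140H or any of arrays A, B or C of B140P (adjusted p between 0.0567 and 0.0989). Oasl1 was not called without array A or C of B117H, array A or C of B117P, array B of B140H or any of arrays A, B or C of B140P (adjusted p between 0.0539 and 0.0981), Dhx58 without any of arrays A, B or C of B117H, array A or C of B117P, array A of B140H or array B or C of B140P (adjusted p between 0.0561 and 0.0833) and Parp9 without array A or B of B117H, array C of B117P or array B or C of B140P (adjusted p between 0.0526 and 0.0562). Ifit2 and Ifi47, which rose in B117H, had differences of -0.38 (adjusted p = 0.278) and -0.09 (adjusted p = 0.863), and Ifih1 and Stat2, which rose in B140H, of 0.44 (adjusted p = 0.104) and 0.35 (adjusted p = 0.376), and none of these 4 was called in this fit. Without array B of B140H, which stood apart in its distribution, the difference of Ifih1 was called (adjusted p = 0.0419). With its probe sets averaged, Dhx58 was not (adjusted p = 0.0948).

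More members were called between the lineages than between a resistant line and its parent. In B140P, 27 of the 40 members were lower than in B117P and 1 was higher, while 23.8% of all genes were called, 2155 of them lower and 2178 higher. The median member differed by -0.70, against 0.00 for all genes, and 13 members differed by at least 2-fold, all 13 downward. In B140H, 18 members were lower than in B117H and 0 higher, against 27.0% of all genes called, 2485 of them lower and 2426 higher, and the median member differed by -0.37, against 0.07 for all genes. The comparison of the resistant lines was chosen after seeing the data. These comparisons share no arrays, but they share 1 fit and its estimate of spread. Each resistant line also derives from its parental line, so the comparisons are not independent. Without array B of B140H, 17 members were called between the resistant lines, 16 of them lower and 1, Ifih1, higher in B140H (adjusted p = 0.0248). All 18 members lower in B140H were also lower in B140P, where they made up 66.7% of the 27. The same overlap over all genes is not given here. B117P had the highest mean of the 4 lines for 26 of the 40 members and B140P the lowest for 24.

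**Figure D4:**
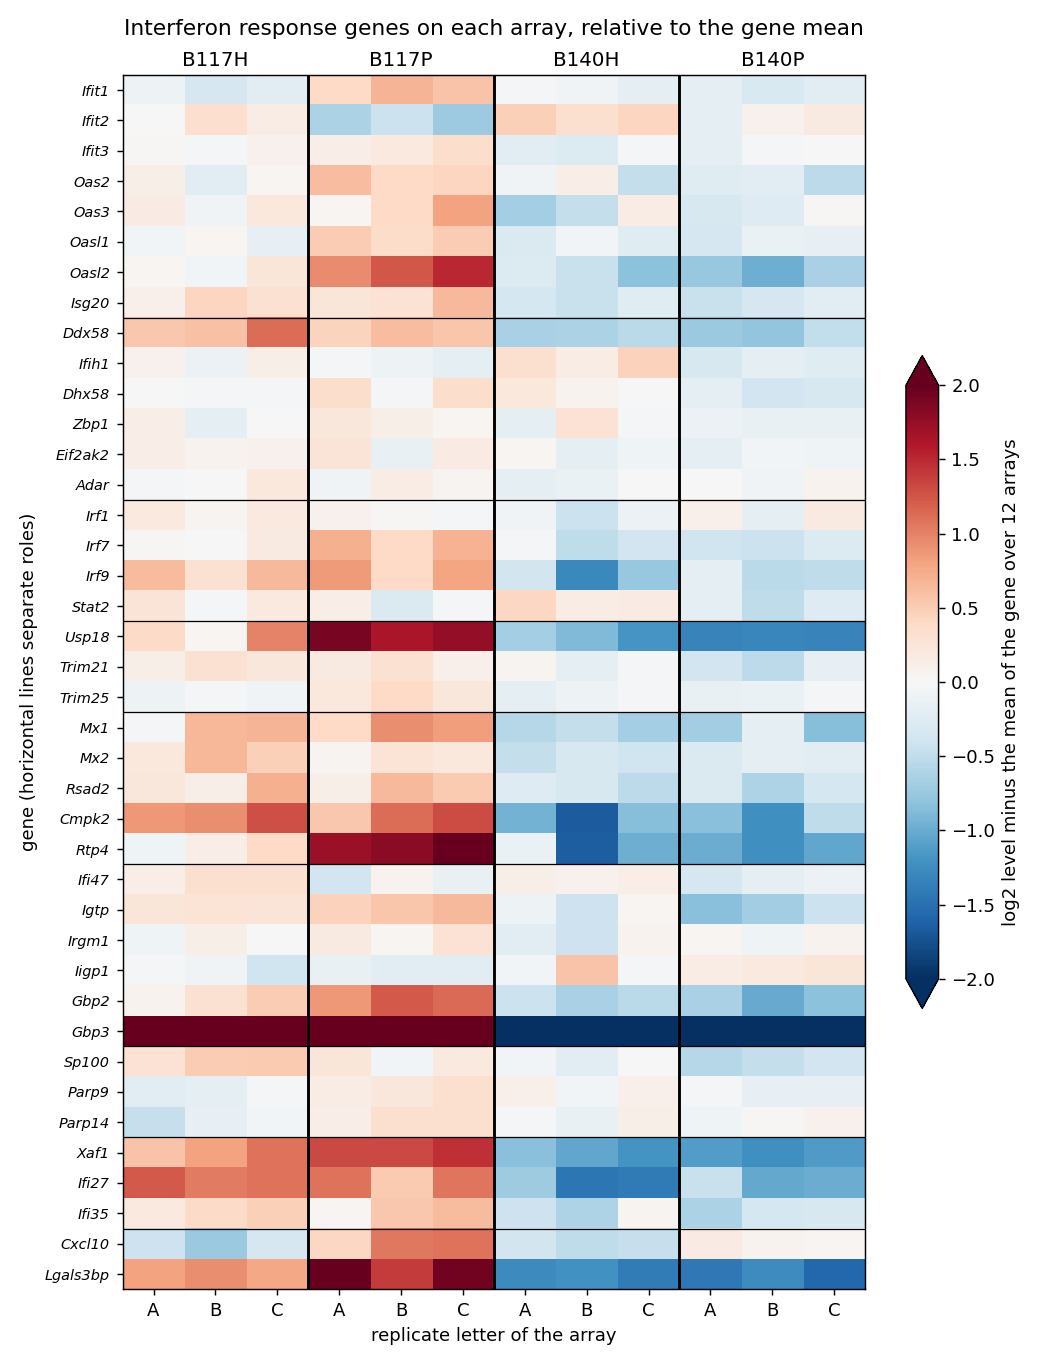
Log2(intensity + 1) of each measured interferon response gene on each array, minus the mean of that gene over the 12 arrays, with genes down the page by role and arrays across it by line. The colour scale ends at 2 in either direction and Gbp3 runs past it in every line, and most genes are above their mean in B117P and below it in B140P.

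Gbp3, a guanylate-binding GTPase, showed the largest difference. It measured 36.9, 41.5 and 36.4 intensity units in B140P, against 2518, 4125 and 4195 in B117P, a log2 difference of -6.49 (adjusted p = 3.84e-10). Among resistant cells it measured 45.1, 56.4 and 31.9 in B140H, against 1693, 2636 and 2214 in B117H, a difference of -5.60 (adjusted p = 1.56e-09). The B140 values lie near the low end of the arrays, whose lowest value was 7.65 and for which no measure of background was used, so the size of this difference is not exact. Gbp2, close to it on chromosome 3, measured 32.6, 25.2 and 28.8 in B140P, against 94.96, 123 and 115 in B117P, a difference of -1.90 (adjusted p = 3.87e-07), and -0.83 (adjusted p = 0.000595) between B140H and B117H. Igtp, the other GTPase that was lower in B140P, differed by -1.20 (adjusted p = 1.58e-05) and, between B140H and B117H, by -0.41 (adjusted p = 0.0369), a call lost without any of arrays A, B or C of B117H, array B of B117P, array A or B of B140H or array B of B140P (adjusted p between 0.0509 and 0.133).

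Between the parental lines Lgals3bp and Usp18 followed. Lgals3bp differed by -3.31 (adjusted p = 2.13e-08) between B140P and B117P and by -2.14 (adjusted p = 1.36e-06) between B140H and B117H, where it measured 99.5, 104 and 91.3 intensity units in B140H, against 424, 465 and 419 in B117H. Usp18 differed by -3.09 (adjusted p = 1.00e-07) and -1.38 (adjusted p = 0.000156). All 5 antiviral effectors were lower in both B140 lines than in their B117 counterparts. Cmpk2 measured 214, 162 and 267 intensity units in B140P, against 554, 831 and 941 in B117P and 197, 119 and 212 in B140H, against 696, 724 and 936 in B117H, with differences of -1.85 (adjusted p = 0.000129) and -2.18 (adjusted p = 2.63e-05). For Mx1 the differences were -1.30 (adjusted p = 0.000553) and -1.01 (adjusted p = 0.0034), and for Rsad2 they were -0.85 (adjusted p = 0.00284) and -0.72 (adjusted p = 0.00785). Rtp4 differed by -2.95 (adjusted p = 4.70e-06) between the parental lines and by -1.07 (adjusted p = 0.0132) between the resistant ones, where the call was lost without array C of B117H (adjusted p = 0.0584). Mx2 differed by -0.41 (adjusted p = 0.0262), a call lost without array B or C of B117P or any of arrays A, B or C of B140P (adjusted p between 0.0545 and 0.104), and by -0.85 (adjusted p = 0.000129) between the resistant lines.

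Xaf1 and Ifi27 were also lower in both B140 lines, and after Gbp3 the difference of Ifi27 was the largest between the resistant lines. Xaf1 measured 119.6, 111 and 118 intensity units in B140P, against 651, 654 and 719.8 in B117P, a difference of -2.53 (adjusted p = 1.24e-08), and differed by -1.85 (adjusted p = 2.47e-07) between B140H and B117H. Ifi27 measured 1294, 867 and 884 in B140P, against 3768, 2543 and 3725 in B117P, a difference of -1.72 (adjusted p = 6.33e-05), and 1078, 651 and 659.9 in B140H, against 4126, 3624 and 3755 in B117H, a difference of -2.31 (adjusted p = 3.96e-06). The lowest B117 array of Ifi27 lay above every B140 array. Ifi35 differed by -0.84 (adjusted p = 0.00502) and by -0.68 (adjusted p = 0.0176), and its call between the resistant lines was lost without array B or C of B117H or array A or B of B140H (adjusted p between 0.0573 and 0.0781). The sensor Ddx58 measured 188, 183 and 225 in B140P, against 432, 484 and 466 in B117P, a difference of -1.22 (adjusted p = 3.43e-05), and differed by -1.36 (adjusted p = 1.11e-05) between the resistant lines. Irf9 differed by -1.09 (adjusted p = 0.00185) in B140P and by -1.34 (adjusted p = 0.000326) in B140H, while Irf7 differed by -0.97 (adjusted p = 0.000113) between the parental lines and by -0.38 (adjusted p = 0.0562) between the resistant ones. With the replicate block the difference of Irf7 between the resistant lines was called (adjusted p = 0.0189), as were those of Irf1 (adjusted p = 0.0142) and Oas3 (adjusted p = 0.0304).

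Among the genes of RNA binding and decay, Oasl2 differed by -2.02 (adjusted p = 1.23e-06) between B140P and B117P, and by -0.60 (adjusted p = 0.0193) between B140H and B117H, a call lost without array C of B117H or array C of B140H (adjusted p between 0.0736 and 0.0837). Isg20 differed by -0.73 (adjusted p = 0.000962) in B140P and by -0.63 (adjusted p = 0.00255) in B140H. Oas2, Ifit1 and Oasl1 were called lower in B140P, at -0.81, -0.79 and -0.68, and were not called between the resistant lines, at -0.12, 0.12 and -0.13. With the replicate block, Ifit3 (adjusted p = 0.0168) and Oas3 (adjusted p = 0.00539) were called lower in B140P as well. Array B of B117P does not pair by letter with B140P, which limits these calls. Ifit2 was the 1 member higher in B140P, by 0.62 (adjusted p = 0.00249). Cxcl10 differed by -0.76 (adjusted p = 0.00413) between B140P and B117P and by 0.06 (adjusted p = 0.858) between B140H and B117H. Trim21, Trim25 and Dhx58 were called lower in B140P, at -0.55, -0.38 and -0.53 and not called between the resistant lines. The other probe sets of Trim21 (-0.23, adjusted p = 0.106) and Trim25 (-0.24 and -0.25, adjusted p = 0.102 and 0.405) were not called in B140P. With its probe sets averaged, Dhx58 was not called in B140P either (adjusted p = 0.123). Another Dhx58 probe set was called higher in B140H than in B117H, by 0.35 (adjusted p = 0.0378). Sp100 was called lower in both, at -0.60 in B140P and -0.53 in B140H. Parp9 differed in B140P by -0.36 (adjusted p = 0.0154), a call lost without array C of B117P or array B or C of B140P (adjusted p between 0.0654 and 0.0706). In the fit without the block and by the probe set used, 8 members were called in no comparison, namely Ifit3, Oas3, Zbp1, Eif2ak2, Adar, Irf1, Irgm1 and Iigp1. Their standard errors lay between 0.10 and 0.22 log2 units where a line was compared with another, and were larger for the difference between the changes.

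**Figure D5:**
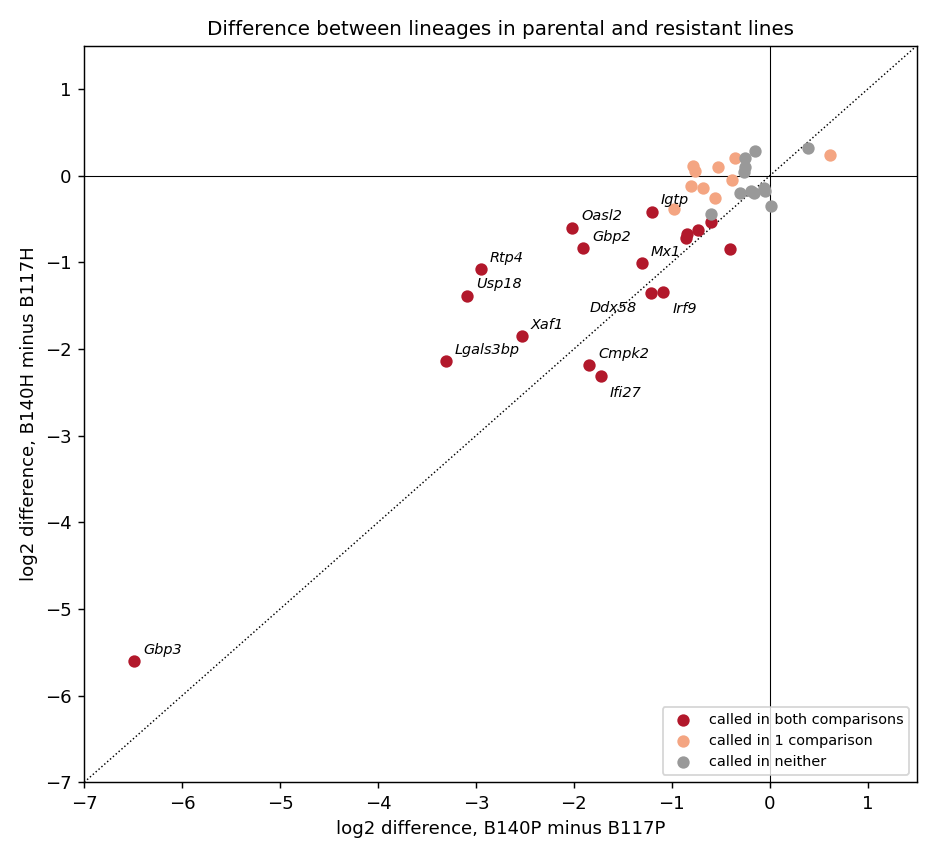
Log2 difference B140P minus B117P (horizontal) against B140H minus B117H (vertical) for the 40 measured interferon response genes, coloured by whether they were called, with a dotted line of equal differences. Gbp3 lies far from the rest at -6.49 and -5.60, while Rtp4, Usp18, Oasl2, Gbp2 and Lgals3bp lie above the dotted line.

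Upstream of these targets, Ifnb1, a type I interferon, measured 67.7, 55.3 and 58.2 intensity units in B117H, against 68.3, 74.8 and 73.1 in B117P, with a change of -0.26 (adjusted p = 0.212), and 62.01, 68.9 and 68.1 in B140H, against 57.9, 57.9 and 67.1 in B140P, with a change of 0.12 (adjusted p = 0.675). It was called in no comparison. Of the 19 measured genes of receptors and signalling, 2 rose and 1 fell in B117H, while B140H had 3 that rose and 0 that fell. Between B140P and B117P 1 was higher and 3 lower, and between B140H and B117H 5 were higher and 2 lower. In these comparisons 9.41%, 6.56%, 23.8% and 27.0% of all genes were called, in that order. The signalling gene that fell in B117H was Ifnar2, the receptor chain on which Usp18 acts. Ifnar2 measured 1183, 1187 and 1228 in B117H, against 2195, 2188 and 2247 in B117P, a change of -0.88 (adjusted p = 2.70e-05), with a tight spread and no overlap. In the B140 lines it measured 1458, 1560.1 and 1466 in B140H, against 990.0, 1030.5 and 1126 in B140P, a log2 change of 0.51 (adjusted p = 0.00263), and the changes differed by 1.39 (adjusted p = 1.61e-05). Ifnar2 was also lower in B140P than in B117P, at -1.08 (adjusted p = 6.66e-07), and higher in B140H than in B117H, at 0.32 (adjusted p = 0.0139).

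Ifnar1, the other chain, measured 570.1, 663 and 656 intensity units in B117H, against 833, 815 and 786 in B117P. Its change of -0.37 (adjusted p = 0.0561) was not called although the arrays did not overlap, and its change in B140H was 0.17 (adjusted p = 0.542). Both chains lie on chromosome 16, as does Il10rb, a subunit of the type III interferon receptor, which rose in B140H by 0.64 (adjusted p = 0.00138). Of the type II receptor, Ifngr1 rose in B117H by 0.34 (adjusted p = 0.0418), and Ifngr2, also on chromosome 16, changed by -0.94 (adjusted p = 0.111) with a wide spread. Jak1 measured 2852, 3027 and 2906 in B117H, against 2197, 1918 and 2105 in B117P, and rose in B117H by 0.50 (adjusted p = 0.0026), while Tyk2 was called in no comparison. When its probe sets were averaged, Jak1 was not called in B117H (adjusted p = 0.244), and Ifnar2 was called neither in B140H relative to B140P (adjusted p = 0.309) nor in B140H relative to B117H (adjusted p = 0.692). The call of Ifngr1 was lost when any of 9 single arrays was left out (adjusted p between 0.0505 and 0.17), and on the B117 arrays alone (adjusted p = 0.0986). Ptpn11, a phosphatase of cytokine signalling, rose in B140H by 0.41 (adjusted p = 0.00873), a call lost without array B of B140P (adjusted p = 0.0542) and with its probe sets averaged (adjusted p = 0.12).

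Of the 22 genes that induce interferon, 0 rose and 3 fell in B117H, while B140H had 2 that rose and 1 that fell. Between B140P and B117P 3 were higher and 2 lower, and between B140H and B117H 6 were higher and 3 lower. The shares of all genes called in these comparisons were 9.41%, 6.56%, 23.8% and 27.0%, in that order. Irf8, a myeloid and B lymphoid factor, measured 2815, 2689 and 2678 intensity units in B117H, against 5546, 5319 and 5785 in B117P, a log2 change of -1.02 (adjusted p = 0.000134). In the B140 lines it measured 9399, 7407 and 8476 in B140H, against 5155, 4201 and 5599 in B140P, a log2 change of 0.76 (adjusted p = 0.00201), and the changes differed by 1.78 (adjusted p = 3.47e-05). Irf3, the factor that first switches on Ifnb1, rose in B140H by 0.44 (adjusted p = 0.00927) and changed by -0.02 (adjusted p = 0.985) in B117H. Cgas, the sensor of cytosolic DNA, fell by 0.35 (adjusted p = 0.0247) in B117H and by 0.42 (adjusted p = 0.0119) in B140H. Myd88, the adaptor of Toll-like receptors, fell in B117H, with a log2 change of -0.37 (adjusted p = 0.0283). The call of Myd88 was lost without array A or C of B117H or array A or C of B117P (adjusted p between 0.0869 and 0.123). That of Cgas in B117H was lost without any array of B117H or array B of B117P (adjusted p between 0.0514 and 0.122), and in B140H without array A or B of B140P (adjusted p = 0.0543 and 0.0529). Irf3 was not called in B140H with its probe sets averaged (adjusted p = 0.126). Tlr7, a sensor of single-stranded RNA, was lower in B140P than in B117P, with a difference of -2.01 (adjusted p = 1.45e-06).

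A further list held 61 measured interferon target genes. In B117H 8 of the 61 rose and 3 fell, with a median of 0.02, and in B140H 3 rose and 2 fell, with a median of 0.05. Of all genes, 4.73% rose and 4.68% fell in B117H, with a median of -0.01. In B140H 2.81% of all genes rose and 3.75% fell, with a median of 0.05. Ifi30, a lysosomal thiol reductase, fell in B117H, with a log2 change of -1.82 (adjusted p = 2.40e-06), while Gbp6 rose by 1.27 (adjusted p = 0.00316), Phf11d by 0.96 (adjusted p = 0.00253) and Tap2, the peptide transporter of antigen presentation, by 0.82 (adjusted p = 0.00611). Psmb9, an immunoproteasome subunit, rose in B117H by 0.56 (adjusted p = 0.00129) and in B140H by 0.35 (adjusted p = 0.0365). The call of Psmb9 in B140H was lost without any 1 of 10 arrays (adjusted p between 0.0532 and 0.152). In B140H Lgals9, a galectin, fell by 1.33 (adjusted p = 0.000238) and Trim30a rose by 0.88 (adjusted p = 0.00254). Between the lineages more of the list was called lower than higher. In B140P 18 of the 61 were lower than in B117P and 5 higher, and in B140H 23 were lower than in B117H and 6 higher. Parp12 differed by -4.16 (adjusted p = 7.34e-07) in B140P and -4.10 (adjusted p = 7.72e-07) in B140H, and Gbp7, of the family of Gbp3, by -3.52 (adjusted p = 5.45e-08) and -3.11 (adjusted p = 1.67e-07). Oas1a, a synthetase of the family of Oas2, differed by -2.35 (adjusted p = 1.85e-08) and -2.49 (adjusted p = 1.06e-08).

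Chromosome 16 genes and some markers of myeloid cells also changed in B117H, where 4.68% of all genes fell and 4.73% rose. On chromosome 16, 125 of 598 genes fell and 9 rose in B117H, with a median of -0.12. Of the 5 members there, Rtp4, Parp9 and Parp14 fell, and of the 35 members on other chromosomes 10 fell and 2 rose, with a median of -0.15. Among all 17547 genes on other chromosomes 724 fell and 851 rose, with a median of -0.003. Of 12 neutrophil granule markers, 4 fell and 0 rose in B117H, and their summed intensity ran from 39778 to 40458 in B117H, against 55760.4 to 66046 in B117P. Of 13 monocyte and macrophage markers, 3 fell and 1 rose, with sums from 18232 to 21059 in B117H, against 22513 to 24940.1 in B117P. S100a8, a granule protein, fell by 1.83 (adjusted p = 0.0372), and Ms4a6d, a macrophage membrane protein, fell by 2.63 (adjusted p = 8.82e-06). The monocyte and macrophage markers ran from this fall to a rise of 1.87, and 9 of the 13 were not called. Of the 12 neutrophil markers 8 were not called. Of 9 plasmacytoid dendritic cell markers, cells known for making interferon, 2 rose and 2 fell, with sums from 9915 to 11193 in B117H, against 11112 to 12058 in B117P. This list holds Irf8 as well, and the intensity of Irf8 fell by more than the sum did. The lower sum thus does not stand for the other markers. Of 9 B lymphoid markers, 2 rose and 1 fell, with sums from 4624 to 6179.8 in B117H, against 1413 to 1955 in B117P. Of the 9 T and NK cell, 7 erythroid and megakaryocyte and 10 fibroblast and endothelial markers, 0, 0 and 1 were called in B117H. The part of these cell markers in the result was not tested. In B140H 1 neutrophil marker rose and 1 fell, and 2 monocyte markers rose, while of the B lymphoid markers 1 rose and 2 fell. There 2.81% of all genes rose and 3.75% fell.

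Between the lineages, cell type markers differed along with the members, and the lineage and the cell type cannot be told apart. Over all 18193 genes, 23.8% were called between B140P and B117P, 2155 of them lower and 2178 higher in B140P. In B140P 8 of the 13 monocyte markers were lower than in B117P and 0 higher, with sums from 4452 to 6775 in B140P, against 22513 to 24940.1 in B117P. Of the 12 neutrophil markers 6 were lower and 0 higher, with sums from 16798 to 17631 in B140P, against 55760.4 to 66046 in B117P. Of the 9 B lymphoid markers 6 were higher and 0 lower, with sums from 6157 to 10529 in B140P, against 1413 to 1955 in B117P. Mpo differed by -5.08 (adjusted p = 3.19e-08) and Cd79b by 4.11 (adjusted p = 7.49e-09). Between the resistant lines the lists were more mixed, and 27.0% of all 18193 genes were called, 2485 of them lower and 2426 higher in B140H. There 6 monocyte markers were lower and 2 higher in B140H than in B117H, with sums from 9114 to 11119.6 in B140H, against 18232 to 21059 in B117H. Of the neutrophil markers 4 were lower and 0 higher, with a median difference of 0.04, and their sums ran from 13955 to 16709.7 in B140H, against 39778 to 40458 in B117H. Of the B lymphoid markers 5 were higher and 2 lower, with sums from 7419 to 8756 in B140H, against 4624 to 6179.8 in B117H. On chromosome 16, 150 of the 598 genes were lower and 23 higher in B140P than in B117P, and 60 were lower and 75 higher in B140H than in B117H. Chromosomes of some other members were shifted too. In B140H, 27.2% of chromosome 12 genes (Rsad2, Cmpk2, Ifi27) were lower than in B117H and 4.81% higher. For chromosome 4 (Ddx58) these shares were 30.1% and 4.93%, for chromosome 1 (Sp100) 30.2% and 4.32%, and for chromosome 5 6.99% and 27.0%. In B140P, 25.8% of chromosome 4 genes were lower than in B117P and 3.29% higher, and for chromosome 1 these shares were 23.9% and 3.85%. On chromosome 12, 7.37% were lower and 21.0% higher, while its 3 members were all called lower. The part of these shifts was not tested.

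The members' probe sets bear on how their values read. Of the 40 measured members, 18 had other probe sets of their own, 25 in all. In B117H 20 of the 25 had the same call as the probe set used, and in B140H 24 of 25 did, while 21 did for the difference between these changes. Between B140P and B117P 18 of the 25 did, and between B140H and B117H 18 did, with 0 opposite calls in any comparison. The other probe sets gave smaller lineage differences for several members. That of Xaf1 differed by -0.50 (adjusted p = 0.0057) in B140P and -0.25 (adjusted p = 0.141) in B140H, that of Cmpk2 by -0.52 (adjusted p = 0.0352) and -0.45 (adjusted p = 0.0616), and that of Rtp4 by -0.52 (adjusted p = 0.0273) and -0.06 (adjusted p = 0.843). The other probe set of Xaf1 changed by -0.18 (adjusted p = 0.562) in B117H and that of Gbp2 by -0.99 (adjusted p = 0.00484). Members such as the Gbp, Oas and Ifit genes have close relatives, and probe sets whose names mark possible matches to several transcripts were left out in 1 alternative, which leaves 30 members. Of these, 19 were called between B140P and B117P and 11 between B140H and B117H.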

How the data were processed

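Total RNA of 4 mouse leukaemia lines was measured on 12 one-colour arrays. Per the submitters' processing notes, the authors summarised the deposited intensity values with RMA (version not given in the sources used here). The linear scale was read from the values, which ran from 7.65 to 36675 intensity units, and they were used as log2(value + 1). Folds are on that scale. After 64 controls were dropped from 45101 probe sets, 45037 were tested two-sided with limma 3.58.1 in R 4.3.3, in 1 fit of 12 arrays with a coefficient for each line (lmFit, contrasts.fit, eBayes), with Benjamini-Hochberg adjustment over all 45037 and calls at an adjusted p under 0.05. The fit was checked on simulated data. The platform annotation gave 34945 probe sets 1 symbol, 932 several and 9160 none, and only the first kind were named, which made 18193 genes. The RefSeq gene table (GRCm38.p6) matched 18145 of them and gave chromosomes and neighbours; the promoters come from the RefSeq table of the same build. For the deposited values no build is named in the sources used here.

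The members and lists were chosen with earlier results of these data known. The text may name any member, Irf3, Ifnb1, the interferon receptor chains, Jak1 and Tyk2, the 4 called genes with the largest change per comparison from each further pathway list, and the called markers with the 2 largest changes per comparison. An item that this rule also covers is not reported here. Same-letter arrays were checked for shared deviations from their line's mean across probe sets. The correlations for A, B and C were 0.587, 0.360 and 0.560 between B140H and B140P, and 0.455, 0.349 and 0.532 between B140H and B117H. So the letters pair these lines, on the data alone. Between B140P and B117P the same-letter correlations were 0.499, 0.131 and 0.414. There array B of B117P had 0.241 with array C of B140P, so for array B the letter does not pair these lines. Between B117H and B117P the same-letter correlations were 0.555, 0.0278 and 0.392, and the letters were not taken to pair them. The alternatives were the letter as a replicate block, the compared lines alone, repeated quantile normalization, median centring, pseudocounts of 0 and 16, brighter probe sets, an intensity trend with a robust prior, a gene's probe sets averaged, single-transcript probe sets, an adjusted p under 0.01 and leaving out each array. No 2 arrays held identical values. The comparison of B140H with B117H was added after seeing the data.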

Additional observations from a re-analysis of the deposited data

Results flagged for a closer look

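For 12 interferon response genes and 18 of the 102 genes of sensing, signalling and further targets the change in the resistant line differed between the lineages. The test was the interaction term of the limma model, by which 10.4% of all genes were called. Of these 12 and 18 genes, 25 are given here, as the log2 change in B140H minus B140P less that in B117H minus B117P. Among the interferon response genes these were Rtp4 (1.87, adjusted p = 0.00989), Usp18 (1.71, adjusted p = 0.00195), Oasl2 (1.42, adjusted p = 0.00214), Lgals3bp (1.17, adjusted p = 0.0118), Gbp2 (1.07, adjusted p = 0.00418) and Ifit1 (0.91, adjusted p = 0.0016), which fell in B117H and were not called in B140H. With smaller differences came Cxcl10 (0.82, adjusted p = 0.0475), Igtp (0.79, adjusted p = 0.0176), Xaf1 (0.68, adjusted p = 0.0388), Dhx58 (0.64, adjusted p = 0.0296), Parp9 (0.56, adjusted p = 0.019) and Oasl1 (0.54, adjusted p = 0.0364).

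Among the receptors and signalling genes the changes differed for Ifnar2 (1.39, adjusted p = 1.61e-05), Il10rb (0.67, adjusted p = 0.00732), Ptpn11 (0.57, adjusted p = 0.00644), Ifnar1 (0.53, adjusted p = 0.0469) and Jak1 (-0.48, adjusted p = 0.0289). Ifnar2 fell in B117H and rose in B140H. Among the genes that induce interferon they differed for Irf8 (1.78, adjusted p = 3.47e-05) and Irf3 (0.47, adjusted p = 0.0351), and Irf8 likewise fell in B117H and rose in B140H. Of the 61 further target genes 4 differed with the more positive change in B140H and 7 with the more negative one, against 4.91% and 5.51% of all genes. Those named by the rule for named genes were Ifi30 (1.68, adjusted p = 0.000107), Trim30a (0.79, adjusted p = 0.0273) and Trafd1 (0.63, adjusted p = 0.0192), with the more positive change in B140H, and Lgals9 (-1.78, adjusted p = 0.000268), Gbp6 (-1.32, adjusted p = 0.0211) and Phf11d (-1.14, adjusted p = 0.00798), with the more negative change in B140H. The calls of Ifnar1, Irf3, Jak1, Trim30a, Gbp6 and Trafd1 were each lost on leaving out 1 or another of several single arrays. With probe sets averaged, the differences of Il10rb (adjusted p = 0.0802), Ptpn11 (adjusted p = 0.141) and Dhx58 (adjusted p = 0.0948) were not called.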

How the results depend on the processing

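Among the counts of interferon response genes called, the one for B117H minus B117P (15) was 9 at an adjusted p under 0.01, and it ranged from 9 to 15 when each array was left out in turn. The one for B140H minus B140P (3) was 5 with the replicate block, 1 with arrays centred on their medians, 1 at an adjusted p under 0.01, and ranged from 1 to 3 without single arrays. The difference between these changes (12) gave 5 at an adjusted p under 0.01 and ranged from 6 to 13 without single arrays. B140H minus B117H (18) gave 11 without probe sets whose names end in _s_at, _x_at or _a_at, a setting that leaves 30 members. The 102 genes of sensing, signalling and further targets gave 8 in place of 17 for B117H minus B117P at an adjusted p under 0.01, 8 in place of 18 for the difference, and 7 in place of 11 for B140H minus B140P. The last was 6 on the pair's own arrays and 6 without the probe sets named above. Without single arrays these 3 counts ranged from 9 to 17, from 11 to 18 and from 6 to 11. With the replicate block 17 members were called for B117H minus B117P and 17 for the difference. The counts were 30 for B140P minus B117P and 21 for B140H minus B117H. The letters were not taken to pair B117H with B117P, where array B had a same-letter correlation of 0.0278. Array B of B117P did not pair by letter with B140P either, and it also enters the difference. No member's call was reversed in any of these settings. Outside the members, between B140H and B117H, Pnpt1 (0.29) was -0.17 without those probe sets and Samhd1 (0.26) was -0.029 with its probe sets averaged, neither then called. For the other changes with setting the cause was not tested. The values carry no detection calls, 3 arrays per line limit the precision, and differences among dim probe sets may be understated.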
